A study of Saccharomyces cerevisiae with 2 samples.

Results

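The mature 18S rRNA is the RNA of the small ribosomal subunit and is cut out of the 35S pre-rRNA between the 5′ ETS and ITS1. Its coverage in CRAC libraries was described here along its 4 structural domains. The molecule was taken as all nucleotides listed under the 18S feature (RDN18-2), counted from its first nucleotide, which gave 1800 of the 6858 nucleotides of the 35S pre-rRNA. RefSeq lists RDN18-2 of the S288C genome with the same length of 1800 nt. The domains were cut by position only, with nucleotides 1 to 620 as the 5′ domain, 621 to 1140 as the central domain, 1141 to 1630 as the 3′ major domain and 1631 to 1800 as the 3′ minor domain. These limits are rounded and do not fall exactly on the ends of helices.

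In CRAC, RNA that UV light at 254 nm has crosslinked to a tagged protein is trimmed, purified with the protein and sequenced. The Pol5-HTP library came from BY4741 yeast cells with a His-Tev-ProtA tag at the C-terminus of Pol5, encoded at its genomic locus. The WT library came from BY4741 cells with a wild-type genotype. There was 1 library per condition and no replicate, so no test between conditions was possible, and the intervals given cover counting error only. Copies of 1 molecule made by PCR may remain among the reads, although the authors merged identical sequences. All intervals take reads as independent and are too narrow if such copies remain. The deposited title of the control ends in HTP, but its genotype label reads wild type, and it was taken as untagged.

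Values are coverage in hits per 1000000 mapped reads (normalized hits). For WT 1 read equalled 2.16 normalized hits and for Pol5-HTP 0.570, so that the coverage had been scaled to 463950 and 1755048 reads. The RNA class tables of the same libraries summed to 1092199 and 1073688 reads. With these class totals in place of the others, all ratios of Pol5-HTP to WT with nothing added become 3.85 times as large. Directions between the libraries therefore depend on the total, whereas shares within the 18S rRNA and the positions of summits do not. The coverage of the 18S rRNA needs at least 19110 reads in WT and 31150 in Pol5-HTP, counting the reads over the first nucleotide and every later rise. If reads are independent, a count of 0 reads allows up to 3 reads, or 6.47 normalized hits for WT and 1.71 for Pol5-HTP.

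In the mature subunit the 5′ domain forms the body, the central domain the platform and the 3′ major domain the head. The 3′ minor domain holds the long penultimate helix, which lines the subunit interface and carries part of the decoding center, and the last hairpin of the molecule. During assembly these domains fold within the SSU processome, a large particle around the U3 snoRNA, in which the 5′ ETS acts as a scaffold. The 18S rRNA is released at its 5′ end by cleavage at site A1 and at its 3′ end, in the cytoplasm, by cleavage at site D. Pol5 is an essential nucleolar protein.

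The sequences on which the coverage turned are given first, as the DNA letters of the deposited profile, 5′ to 3′. The first 5 are cores, the stretches at or above 50% of a summit, for the highest summit of WT and of Pol5-HTP on the molecule, both in the 5′ domain, and 1 high summit of each further domain. Capitals mark the summit with up to 5 nt on both sides.
5′ domain, WT summit at nucleotide 494, core 473 to 507: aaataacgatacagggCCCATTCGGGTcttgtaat
5′ domain, Pol5-HTP summit at nucleotide 549, core 529 to 598: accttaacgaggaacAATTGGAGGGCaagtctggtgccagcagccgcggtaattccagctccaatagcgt
Central domain, Pol5-HTP summit at nucleotide 717, core 697 to 736: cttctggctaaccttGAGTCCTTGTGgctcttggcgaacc
3′ major domain, WT summit at nucleotide 1339, core 1336 to 1378: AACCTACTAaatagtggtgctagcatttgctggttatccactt
3′ minor domain, Pol5-HTP summit at nucleotide 1637, core 1615 to 1674: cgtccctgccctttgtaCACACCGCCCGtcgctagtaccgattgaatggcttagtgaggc

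The next 4 are stretches in which every nucleotide of Pol5-HTP was at or above 2 times WT (coverage as deposited, 10 normalized hits added to both), chosen for display after their values were seen. Capitals mark the highest Pol5-HTP nucleotide of the stretch with up to 5 nt on both sides.
5′ domain, nucleotides 26 to 58: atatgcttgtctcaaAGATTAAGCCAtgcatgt
5′ domain, nucleotides 308 to 353: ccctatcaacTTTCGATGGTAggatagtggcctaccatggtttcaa
5′ domain, nucleotides 396 to 424: GAGAAAcggctaccacatccaaggaaggc
Central domain, nucleotides 1090 to 1123: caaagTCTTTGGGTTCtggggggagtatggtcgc

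Coverage fell along the molecule from the 5′ to the 3′ domains in both libraries. In the 5′ domain WT averaged 1627 normalized hits and Pol5-HTP 962. The central domain had 1087 in WT and 475 in Pol5-HTP, and the 3′ major domain 479 and 203. The 3′ minor domain was lowest, at 168 for WT and 92.4 for Pol5-HTP. The mean of the 5′ domain, the body of the subunit, was thus 9.67 times that of the 3′ minor domain in WT and 10.4 times in Pol5-HTP.

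The 5′ domain made up 34.4% of the nucleotides but held 54.9% of the WT hits on the 18S rRNA (95% Wilson interval 54.2% to 55.6%). In Pol5-HTP it held 62.2% (61.7% to 62.8%), a share 1.13 times that of WT. The central domain had 30.8% of the hits in WT (30.1% to 31.4%) and 25.7% in Pol5-HTP (25.3% to 26.2%). The 3′ major domain had 12.8% (12.3% to 13.3%) and 10.4% (10.03% to 10.7%). For these 3 domains the intervals of both libraries did not overlap, which says nothing of the spread between cultures. The 3′ minor domain, with 9.44% of the nucleotides, held 1.56% (1.39% to 1.75%) and 1.64% (1.502% to 1.78%), and here the intervals overlapped. The intervals were computed as if each library held only the fewest reads that give its profile.

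**Figure D1:**
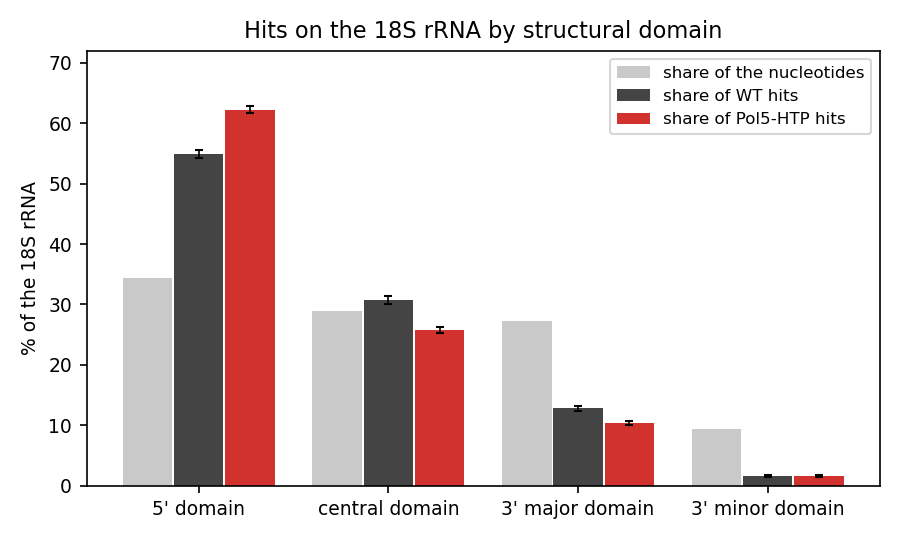
Share of each of the 4 domains in the length of the 18S rRNA (grey) and in its hits in WT (dark) and Pol5-HTP (red), in percent, 1 library each; error bars are 95% Wilson intervals of counting error. The 5′ domain holds 34.4% of the nucleotides, 54.9% of the WT hits and 62.2% of the Pol5-HTP hits.

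As deposited, mean coverage was lower in Pol5-HTP in all 4 domains. With 10 normalized hits added to both means, the log2 ratio was -0.75 in the 5′ domain, -1.18 in the central domain, -1.20 in the 3′ major domain and -0.80 in the 3′ minor domain. With the class totals the same domains had 1.17, 0.74, 0.68 and 0.98, so the direction of each turned with the scaling. The direction in the 3′ major domain also turned with the summary used, as the deposited medians were 140 for WT and 189 for Pol5-HTP and gave a log2 ratio of 0.41. With medians the 3′ minor domain had -1.63. For comparison, the log2 ratio was -0.09 for the 25S rRNA and 3.07 for the 5′ ETS as deposited. Of all hits on the 35S pre-rRNA, the 18S rRNA held 25.1% in WT and 11.8% in Pol5-HTP.

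Most summits of the 5′, central and 3′ major domains lay at nearly the same nucleotides in both libraries. The 3′ minor domain had a summit in Pol5-HTP only, so no pair lay within it. A summit was the highest nucleotide within 25 nt on both sides that reached 10% of the highest value of its library on the 18S rRNA. WT had 15 summits and Pol5-HTP had 18, and 13 were paired within 10 nt, or 86.7% of the WT and 72.2% of the Pol5-HTP summits. The paired summits were from 1 to 9 nt apart, with a median of 2 nt. Of the 25S summits found by the same definition, 3 were paired, or 33.3% of 9 in WT and 50% of 6 in Pol5-HTP. In the 5′ ETS 5 were paired, or 62.5% of 8 in WT and 71.4% of 7 in Pol5-HTP. In ITS1 all 3 WT summits were paired, a higher share than in the 18S rRNA, as were 60% of 5 in Pol5-HTP. All 13 pairs were higher in WT as deposited, with Pol5-HTP at 0.246 to 0.756 times the WT height and a median of 0.437. With the class totals the range was 0.945 to 2.91, and 1 of the 13 pairs was higher in WT.

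**Figure D2:**
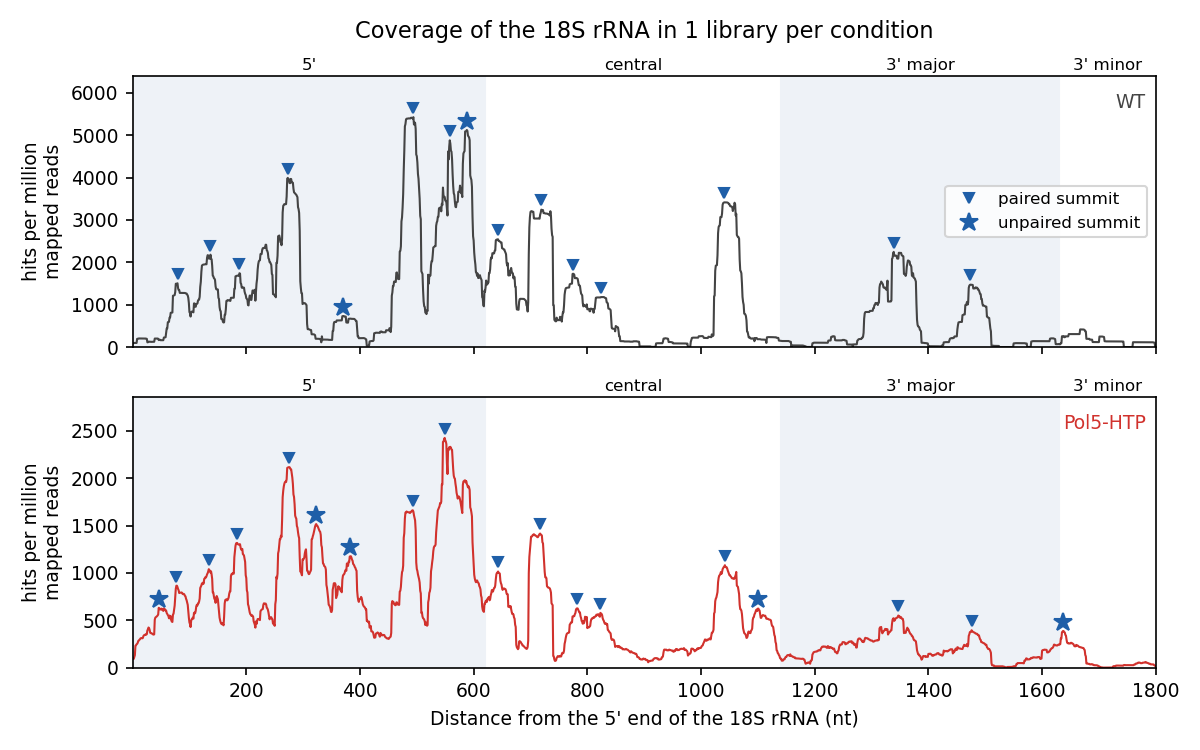
Coverage of the 18S rRNA in hits per 1000000 mapped reads against the distance from its 5′ end, for WT (top) and Pol5-HTP (bottom), 1 library each and each on its own scale; domains are shaded in turn. Triangles mark the 13 paired summits of both libraries and stars the unpaired ones, 2 in WT and 5 in Pol5-HTP.

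The highest summits of both libraries lay in the 5′ domain, but not at the same site. In WT the highest value, 5425 normalized hits or 2517 reads, was at nucleotide 494, where Pol5-HTP had 1646. Pol5-HTP had its own summit 1 nt away, at nucleotide 493, with 1660 normalized hits, the third highest of that library. The highest Pol5-HTP value, 2424 normalized hits or 4254 reads, was at nucleotide 549, where WT had 3543. Its core holds a stretch that is conserved in the small subunit rRNA of all domains of life and lies near the decoding center. In WT the closest summits had 4878 normalized hits at nucleotide 558 and 5121 at nucleotide 588. The second highest Pol5-HTP summit, at nucleotide 276, had 2116 normalized hits, and its WT partner at nucleotide 273 had 3992.

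In the central domain, the platform of the subunit, WT was highest at nucleotide 1041, with 3414 normalized hits, and its Pol5-HTP partner at nucleotide 1042 had 1082. The highest Pol5-HTP summit of this domain was at nucleotide 717 with 1416, against 3242 at nucleotide 719 in WT. In Pol5-HTP the site around nucleotide 717 thus exceeded that around nucleotide 1042, whereas in WT both were close, with 1504 and 1584 reads. In the 3′ major domain, the head, both libraries had 2 summits. The first had 2246 normalized hits at nucleotide 1339 in WT and 552 at nucleotide 1347 in Pol5-HTP. The second had 1472 at nucleotide 1474 and 396 at nucleotide 1476. These were the pairs with the lowest ratios, 0.246 and 0.269.

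The 3′ minor domain had no WT summit, as its highest WT value was 418 normalized hits at nucleotide 1669. This was below 10% of the highest WT value, 5425, whereas a Pol5-HTP summit needed only 10% of 2424. Pol5-HTP had 1 summit here, at nucleotide 1637, with 389 normalized hits or 682 reads, where WT had 256 or 119 reads. The ratio at this nucleotide was 1.52 (95% exact interval 1.25 to 1.86). The summit lies in a conserved stretch at the start of the 3′ minor domain, whose sequence is printed above.

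The other unpaired Pol5-HTP summits were at nucleotides 46, 323 and 383 of the 5′ domain and at nucleotide 1100 of the central domain. The strongest was at nucleotide 323, with 1516 normalized hits or 2660 reads, the fourth highest of the Pol5-HTP library on the 18S rRNA. At the same nucleotide the WT value was 196 normalized hits, or 91 reads, which gave a ratio of 7.73 (95% exact interval 6.27 to 9.63), or 29.7 with the class totals. At nucleotide 46 Pol5-HTP had 633 normalized hits against 164 in WT, a ratio of 3.86 (3.06 to 4.94). At nucleotide 1100 it had 624 against 185, a ratio of 3.37 (2.70 to 4.25). At nucleotide 383 it had 1176 against 670, a ratio of 1.75 (1.56 to 1.98), with a WT summit of 733 normalized hits 12 nt away at nucleotide 371. A summit found in only 1 library is selected for a high ratio at its position, so these ratios describe the sites and are no separate evidence.

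From nucleotide 298 to 323 Pol5-HTP went up from 975 to 1516 normalized hits, while WT went down from 1265 to 196. Both fell from nucleotide 294 to 298 and from 323 to 332. WT fell from 2740 normalized hits at nucleotide 294 to 112 at nucleotide 332, its lowest value in the stretch from 308 to 353. Pol5-HTP rose by 321 normalized hits, or 564 reads, at nucleotide 315, the third largest rise of that library on the 18S rRNA, and WT dropped by 99.1 at the same step. Over nucleotides 308 to 353 Pol5-HTP averaged 1112 normalized hits and WT 242, a ratio of 4.45 with 10 added. The highest ratio of this stretch was 10.7, at nucleotide 332. A further stretch from nucleotide 396 to 424 had means of 573 and 162, a ratio of 3.39.

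**Figure D3:**
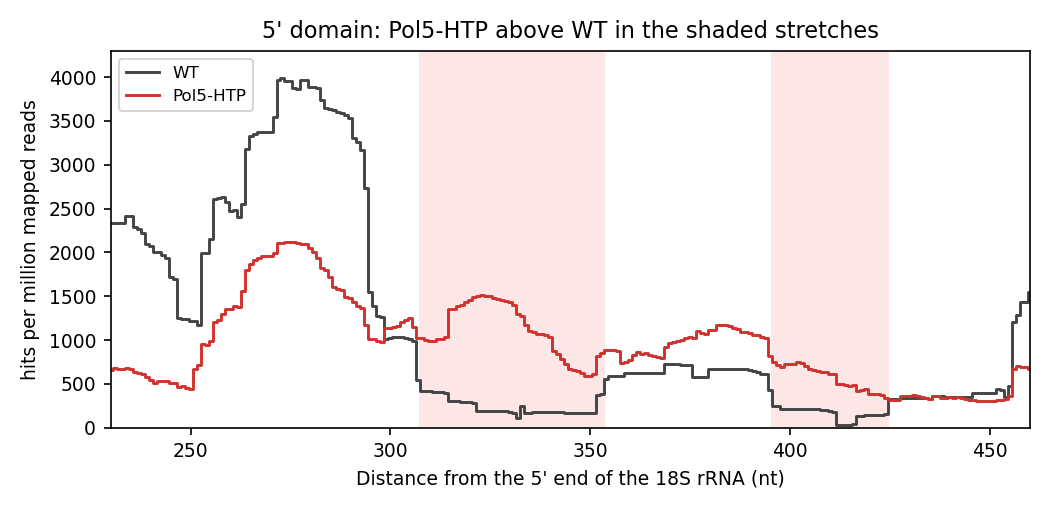
Coverage of part of the 5′ domain in hits per 1000000 mapped reads against the distance from the 5′ end of the 18S rRNA, for WT (dark) and Pol5-HTP (red), 1 library each. In the shaded stretches, nucleotides 308 to 353 and 396 to 424, every nucleotide of Pol5-HTP is at or above 2 times WT, while WT is higher over the summit at nucleotide 273.

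The difference in the share of the 5′ domain was smaller without nucleotides 301 to 450. Among the hits on the 18S rRNA, these 150 nt took up 13.1% in Pol5-HTP and 3.19% in WT. Without them the share of the 5′ domain was 56.5% in Pol5-HTP and 53.4% in WT. This stretch was chosen after the values were seen.

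Over the whole molecule, Pol5-HTP was at or above 2 times WT at 337 of the 1800 nucleotides, or 18.7%, with the coverage as deposited and 10 added. Over all 6858 nucleotides of the 35S pre-rRNA this share was 36%, with 95.9% in the 5′ ETS, 99.4% in ITS1 and 96.6% in ITS2. It was 25.8% in the 25S rRNA, 1.90% in the 5.8S rRNA and 0% in the 3′ ETS. The 18S rRNA was thus below this background, as were the 25S rRNA, the 5.8S rRNA and the 3′ ETS. With the class totals the share rose to 55.7% in the 18S rRNA, against 69.7% over the 35S pre-rRNA. At or below 0.5 times WT were 713 nucleotides of the 18S rRNA, or 39.6%, against 24.5% over the 35S pre-rRNA. By domain, 17.9% of the 5′ domain, 17.1% of the central, 23.7% of the 3′ major and 12.4% of the 3′ minor domain were at or above 2 times WT.

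The 337 nucleotides formed 21 stretches, of which 8 were 20 nt or longer. Together they made up 13.4% of all 18S hits in Pol5-HTP and 1.87% in WT, and by selection they lay where WT was low. In the central domain, nucleotides 892 to 920 had means of 85.3 normalized hits for Pol5-HTP and 10.7 for WT, and nucleotides 1090 to 1123 had 547 against 195. In the 3′ major domain, nucleotides 1400 to 1426 had 141 against 19.6, and nucleotides 1159 to 1183 had 101 against 33.7. GC content was 46.3% in the 337 nucleotides and 44.8% in the whole 18S rRNA, and T content was 26.7% and 28.3%.

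To compare the course of both profiles with less effect of the scaling, ratios over windows of 50 nt (10 added) were divided by their median over the 36 windows, which was 0.524. Of the 36 windows, 12 had a relative ratio of 2 or more, or 33.3%, against 48.6% of the 140 windows of the 35S pre-rRNA measured against the same median. They were 4 of 13 windows starting in the 5′ domain, 4 of 10 in the central domain, 4 of 10 in the 3′ major domain and 0 of 3 in the 3′ minor domain. The highest relative ratio was 6.32, at nucleotides 301 to 350, where Pol5-HTP averaged 1140 normalized hits and WT 337. It was followed by 4.24 at nucleotides 1 to 50, where the means were 373 and 162, and by 3.58 at nucleotides 1151 to 1200, where they were 101 and 49.1. All 12 windows had WT means of 579 normalized hits or lower, and the median WT mean was 155 in them and 1356 in the other 24. High relative ratios were thus found at low WT coverage, although 6 of the other windows also had WT means below 579, and the Spearman coefficient between both across the 36 windows was -0.57. A ratio and its denominator are not independent, and how far this sets the pattern was not tested.

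**Figure D4:**
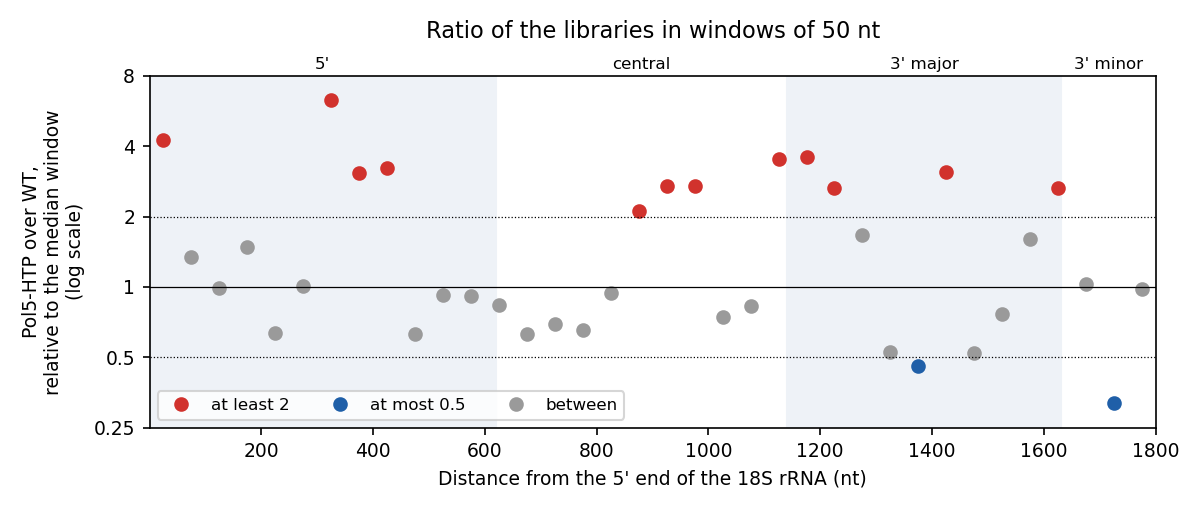
Ratio of Pol5-HTP to WT in windows of 50 nt, divided by the median over the 36 windows of the 18S rRNA (log scale), against the distance from the 5′ end, 1 library each; red points are at 2 or more, blue at 0.5 or less. The highest value is 6.32 at nucleotides 301 to 350 and the lowest 0.319 at nucleotides 1701 to 1750.

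Relatively low windows were fewer, 2 of 36 or 5.56%, against 3.57% over the 35S pre-rRNA. The lowest, with 0.319, was at nucleotides 1701 to 1750 of the 3′ minor domain, where WT had 135 normalized hits and Pol5-HTP 14.3. Within it, nucleotides 1704 to 1724 had only 4 to 10 reads in Pol5-HTP, the lowest coverage of that library on the 18S rRNA, against 62 to 116 reads in WT. The WT reads may hold copies of 1 molecule, as WT coverage was flat at 62 reads over most of these nucleotides. How far such copies set the low ratio of this window was not tested. The window at nucleotides 1351 to 1400 had 0.461, where WT averaged 1169 normalized hits and Pol5-HTP 275. The third lowest, at nucleotides 1451 to 1500, had 0.522. These last windows overlap the cores of the WT summits of the head.

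WT had 46 nucleotides with 0 reads on the 18S rRNA, whereas Pol5-HTP had none. They formed 3 gaps, at nucleotides 1525 to 1549 and 1574 to 1578 of the 3′ major domain and 1744 to 1759 of the 3′ minor domain. At the last gap (agaggaactaaaagtc) WT dropped from 129 normalized hits to 0 within 1 nt and rose to 114 at its end, while Pol5-HTP had 49 to 53 reads throughout. Its Pol5-HTP mean of 29.0 normalized hits was 4.49 times the WT floor of 3 reads. The floor takes reads as independent, but WT coverage changed here by 129 and 114 normalized hits within 1 nt. Multiples of the floor are therefore not lower limits of the ratio. Over nucleotides 1574 to 1578 (ggaat) Pol5-HTP had 88.5 normalized hits, or 13.7 times the floor. Over nucleotides 1525 to 1549 it had 10.99, or 1.70 times the floor.

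Across nucleotides, the coverage of both libraries was least alike in the 3′ minor domain. WT coverage was thin there and needs at least 324 reads, against 11126, 5637 and 2727 in the other domains, 5′ to 3′. The Spearman coefficient was 0.66 in the 5′ domain, 0.86 in the central domain, 0.82 in the 3′ major domain and 0.32 in the 3′ minor domain. The Pearson coefficients were 0.76, 0.90, 0.85 and 0.63. Over the 25S rRNA the Spearman and Pearson coefficients were 0.59 and 0.30, and over the 5.8S rRNA they were 0.90 and 0.86. The 5′ ETS had 0.77 and 0.62, ITS1 0.76 and 0.70, and ITS2 0.73 and 0.69. The 3′ ETS, almost without coverage, had 0.26 and 0.64. Neighboring nucleotides share reads and the libraries share the sequence and the method, so these values are descriptions.

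Some of the largest edges of the sites also recurred at the same nucleotides. The largest fall of both libraries was after nucleotide 739 of the central domain, by 1612 normalized hits for WT and 536 for Pol5-HTP. Of the 5 largest falls of each library 3 were at the same nucleotide, after nucleotides 507, 597 and 739. The rise into the same site, at nucleotide 697, was the largest of Pol5-HTP, with 711 normalized hits, and the second largest of WT, with 1136. It was the only one shared among the 5 largest rises of each library. The largest WT rise, 1511 normalized hits at nucleotide 555, was the seventh largest in Pol5-HTP, with 266. Of the 20 edges listed for both libraries, the rise at nucleotide 315 was the only one with the opposite direction in the other library.

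At the 5′ end of the 18S rRNA, a larger share of the Pol5-HTP than of the WT reads could extend into the spacer, although WT had few reads there. At the 3′ end WT had too few reads over the last nucleotide to compare shares at that nucleotide. At the 5′ end WT coverage rose from 1 read at the last nucleotide of the 5′ ETS to 41 reads at nucleotide 1, so at most 1 read, or 2.44%, could span site A1. In Pol5-HTP it rose from 111 to 166 reads, so up to 66.9% could span it. The 41 WT reads may hold copies of 1 molecule, as WT coverage was flat at 97.0 normalized hits over nucleotides 3 to 7. At the 3′ end WT dropped from 101 normalized hits at nucleotide 1798 to 2.16, or 1 read, at nucleotide 1800, and also had 1 read at the first nucleotide of ITS1, so that 1 of 1 reads could span site D. Pol5-HTP had 25.1 normalized hits at nucleotide 1798, 18.8 or 33 reads at nucleotide 1800 and 18.2 or 32 reads at the first nucleotide of ITS1. From nucleotide 1800 to ITS1 the Pol5-HTP coverage thus changed by 1 read, and up to 97.0% of the reads over the last nucleotide could span site D. Reads that ended just short of nucleotide 1800 are not in this share. Against 101 (WT) and 25.1 (Pol5-HTP) normalized hits at nucleotide 1798, the first nucleotide of ITS1 had 2.16 and 18.2.

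Next to the borders, both spacers were higher in Pol5-HTP as deposited. Over the last 30 nt of the 5′ ETS WT averaged 0.575 normalized hits, with at most 1 read at any nucleotide, and Pol5-HTP 62.1. These means were 0.353% and 20.98% of those over the first 30 nt of the 18S rRNA. Over the last 50 nt of the 5′ ETS they rose to 75.4 and 527, or 46.4% and 141%, since coverage in both libraries was far higher in the part away from the border. Over the first 30 nt of ITS1 WT averaged 1.80 normalized hits and Pol5-HTP 45.2, or 1.67% and 100.5% of the last 30 nt of the 18S rRNA. Over 50 nt these shares were 2.11% and 168%. The flank of 30 nt was chosen after seeing the data. For comparison, up to 60.3% of the WT and 97.6% of the Pol5-HTP reads over the first nucleotide of the 25S rRNA could span the border to ITS2. These are upper limits, since coverage does not show whether reads end and start at the same nucleotide.

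**Figure D5:**
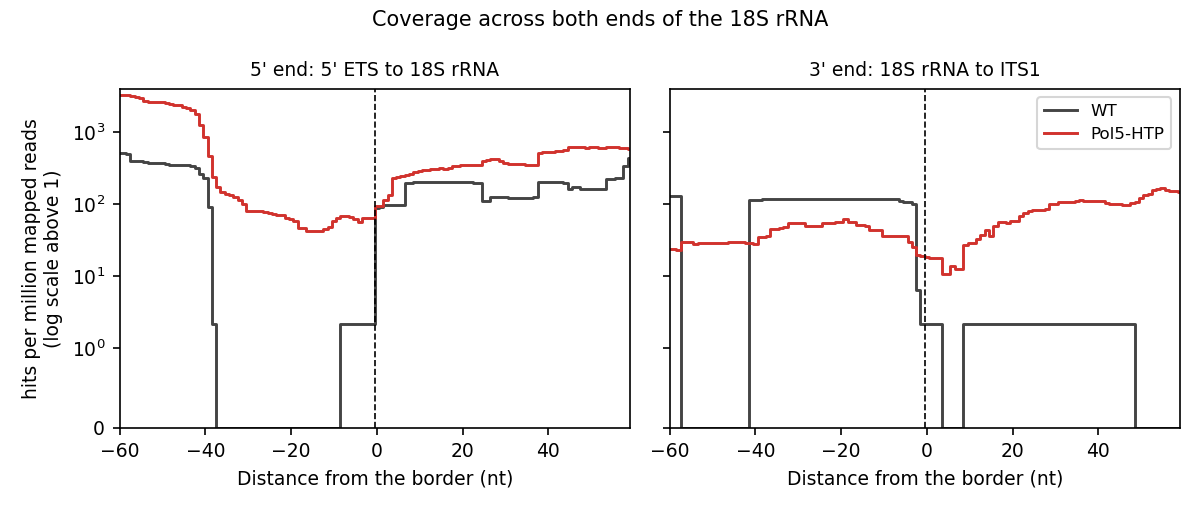
Coverage in hits per 1000000 mapped reads (log scale above 1) against the distance from the border of the 18S rRNA with the 5′ ETS (left) and with ITS1 (right), for WT (dark) and Pol5-HTP (red), 1 library each; the dashed lines are the borders. WT has 1 read at the last nucleotide of the 5′ ETS and at the first of ITS1, whereas Pol5-HTP has 111 reads at the last nucleotide of the 5′ ETS and 32 at the first of ITS1.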

How the data were processed

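Per the methods, barcodes were removed and identical sequences merged by the authors before Flexbar trimmed and filtered the reads. Bowtie 2 served for mapping and pyCRAC for counting RNA classes. The submitters' processing notes give Bowtie2 version 2.3.4.2, whereas the methods name a different version. The genome build and the placing of reads that match several rDNA copies are not given in the sources used here, so only positions within the 18S rRNA are stated. The deposited coverage is a signal, normalized by the authors, in hits per 1000000 mapped reads at each nucleotide. The deposited read counts of 7 RNA classes are raw and served only as an alternative total.

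All coverage values were whole multiples (within 0.05) of 1 step per library, from which reads were recovered. Of 6862 listed positions, 4 border nucleotides listed under both neighbors were counted once. Ratios have 10 normalized hits added to both means. Python 3.11.15, numpy 2.4.6, scipy 1.17.1 and matplotlib 3.10.9 were used. On 20 simulated profiles of 1800 nt, smoothed over 11 nt, 220 of 220 planted summits were found with 0 false ones. The summits reported above were found without smoothing, which was not simulated. The planted summits were far above background, so the simulation tests the code only.

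Sites named were the highest summit of each domain and the 5 highest of each library, the 3 highest and 3 lowest windows, the 5 largest rises and falls and both ends. The stretches at or above 2 times WT, the other unpaired summits and the WT gaps were named after their values were seen. The domains and definitions were chosen with earlier results of these data known. Alternatives changed the scaling, value added, borders, windows and summit definition.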

Additional observations from a re-analysis of the deposited data

How the results depend on the processing

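No paired analysis was possible because there was only 1 library of WT and 1 of Pol5-HTP. For the same reason no replicate was left out, and no value speaks to the spread between cultures. Depth limits ratios where WT had few reads.

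With the class totals the log2 ratios of the domains, 5′ to 3′, reversed to 1.17, 0.74, 0.68 and 0.98. Scaled to the same hits on the 35S pre-rRNA, the 5′, central and 3′ major domains had -0.90, -1.33 and -1.34. With 100 added the 4 values were -0.70, -1.05, -0.94 and -0.48. With medians in place of means they were -0.60, -0.999, 0.41 and -1.63, so the 3′ major domain reversed. With all inner borders moved by 20 nt towards the 5′ or the 3′ end, the log2 ratio of the 3′ minor domain was -0.61 or -1.22, and the log2 ratio of its share 0.29 or -0.40, a reversal.

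The log2 ratio of shares was 0.18, -0.26, -0.30 and 0.07 as reported. Without the cores of the highest summits it was 0.38, -0.34, -0.38 and -0.0083. With values capped at the 95th percentile the 5′ domain had 0.21. Without nucleotides 301 to 450, chosen after seeing the data, the 5′, central and 3′ major domains had 0.082, -0.10 and -0.15.

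With 50 nt on both sides there were 9 summits in WT, 8 in Pol5-HTP and 5 pairs. With 10 nt Pol5-HTP had 29. Relatively high windows made up 16.7% at 100 nt and 19.4% with 100 added, and relatively low ones 11.1% at 25 nt. The Spearman coefficient over the 18S rRNA was 0.85 on window means, against 0.81. Nucleotides at or above 2 times WT numbered 1002 with the class totals, 622 relative to the median window and 178 with 100 added, all chosen after seeing the data. The other 45 values stayed within their counting interval or within 1.5 times of the count.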

Other observations

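The WT profile of the 18S rRNA was built of longer flat blocks than that of Pol5-HTP. From 1 nucleotide to the next, the read count did not change at 715 of 1799 steps in WT, or 39.7%, and at 185 steps in Pol5-HTP, or 10.3%. The longest flat block of WT was 32 nt, at nucleotides 1763 to 1794 in the last part of the 3′ minor domain, with 116 normalized hits. That of Pol5-HTP was 12 nt, at nucleotides 1731 to 1742, with 23.9. The coverage of WT rested on fewer reads, at least 19110 against 31150. Neither the part of depth nor that of remaining copies of 1 molecule in the difference was tested.

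Hits were spread over the bases much as the sequence was. T made up 28.3% of the nucleotides, 29.2% of the WT hits and 28.2% of the Pol5-HTP hits, and A made up 26.8%, 24.9% and 25.6%. In Pol5-HTP the largest departure by domain was C in the 3′ minor domain, which made up 21.2% of the nucleotides, 24.2% of the WT hits and 30.5% of the Pol5-HTP hits. In WT it was A in the central domain, with 26.2% of the nucleotides, 19.6% of the WT hits and 21.2% of the Pol5-HTP hits.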
